A study of Mus musculus with 18 samples.

Results

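This account follows 7 genes for subunits of the GABA-A receptor in medial prefrontal cortex RNA of C57BL6/J mice fed a control diet or PLX5622 chow. They are Gabra2, Gabra3, Gabra4 and Gabra5 (alpha subunits), Gabrb1 and Gabrb2 (beta subunits) and Gabrd (the delta subunit). They were taken by gene symbol as named subunits of an ethanol-sensitive receptor, and make up 7 of the 54547 gene identifiers in each file. No rule on their values was used, but they were chosen with earlier results of these data known. All 7 passed the filter on low counts, which left 11051 genes to be tested. The 9 control and the 9 PLX5622 libraries come from animals numbered separately in the labels, which say nothing of litters, cages, sessions or sex. PLX5622 inhibits CSF1R, the receptor that microglia need to survive, and was given at 1200 mg/kg of chow. The labels place the diet 21 days ahead of 44 days of drinking 15% ethanol every other day, and give postnatal day 100 for the tissue, 24 hours past the final drinking. One treatment text stands on all 18 libraries, control diet included, so it does not say what each animal received, and an abbreviation in the file names is not explained. No library is labelled as a water control, so ethanol itself was not compared.

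GABA-A receptors are chloride channels opened by GABA, the main inhibitory transmitter of the cortex. Each receptor is built around alpha and beta subunits, which together form the GABA binding site, and a further subunit that helps to set where the receptor sits. Receptors with alpha2 or alpha3 lie mainly at synapses, while alpha4 with delta, and alpha5, form receptors that mostly lie outside synapses and carry a steady inhibitory current. Ethanol enhances GABA-A currents, and GABRA2 has long been studied in alcohol use disorder. C57BL/6J mice are known to carry an intronic variant of Gabra2 that lowers its expression. No other strain was measured here.

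The genes lie in 5 places of the mouse genome (GENCODE M21 on GRCm38). Gabra2 (ENSMUSG00000000560.9, chr5:70957597-71095849, minus strand) and Gabra4 (ENSMUSG00000029211.11, chr5:71569749-71658308, minus strand) stand in a cluster on chromosome 5 with Gabrb1 (ENSMUSG00000029212.11, chr5:71658113-72149037, plus strand). Gabra4 and Gabrb1 start head to head and overlap by 196 bases on opposite strands. Gabra5 (ENSMUSG00000055078.7, chr7:57407672-57510059, minus strand) is covered over 88.3% of its span by a protein-coding gene on the other strand. Gabra3 (ENSMUSG00000031343.13) is at chrX:72432681-72656848 on the minus strand, Gabrb2 (ENSMUSG00000007653.12) at chr11:42419757-42629028 on the plus strand and Gabrd (ENSMUSG00000029054.8) at chr4:155384980-155398112 on the minus strand. The spans run from 13.1 kb for Gabrd to 491 kb for Gabrb1.

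The subunits counted here are close relatives that differ at single codons with known pharmacology, shown to make plain what the gene names separate. The first set gives 27 coding bases of each alpha gene, with capitals on the codon whose residue is known to decide whether classical benzodiazepines bind. Receptors with alpha2, alpha3 or alpha5 bind them and receptors with alpha4 do not.
Gabra2: gataccttctttCACaatgggaaaaag
Gabra3: gataccttcttcCACaatggtaaaaaa
Gabra4: gatactttcttcAGGaatggaaagaaa
Gabra5: gacacgttcttcCACaacggcaagaag
These lie at chr5:71014493-71014519, chrX:72501156-72501182, chr5:71641140-71641166 and chr7:57488879-57488905, all on the minus strand, each within 1 coding exon (exon 5, 5, 4 and 5 of the transcript with the longest coding sequence). The second set gives 27 coding bases of each beta gene, with capitals on the codon known to set the response to the anaesthetic etomidate, which acts more strongly on beta2 than on beta1 receptors.
Gabrb1: atgaccaccatcAGCactcacctcagg
Gabrb2: atgaccacaatcAACacccacctccgg
These lie at chr5:72121969-72121995 and chr11:42597561-42597587 on the plus strand, in exon 8 of each transcript. The capitals read CAC in the 3 alpha genes of benzodiazepine-binding receptors and AGG in Gabra4, and they read AGC in Gabrb1 and AAC in Gabrb2. All sequences are those of the reference transcripts in GENCODE M21, since counts per gene hold no sequence.

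Libraries held 990136 to 1742680 counts, and the members had 67 to 1298 counts in a library. Levels are given as CPM, the usual counts relative to a fixed library total, after TMM scaling, a correction for differences in composition between libraries. The diet could be read from microglial genes. Of 14 markers 13 were tested and all 13 fell, with a summed level of 443 to 624 CPM in controls and 116 to 206 CPM with PLX5622. In bulk RNA, fewer cells of a type and less RNA per cell cannot be told apart. Other cell types were called in no marker. This held for 13 tested genes of GABAergic interneurons (summed 2001 to 2257 CPM in controls and 2024 to 2221 with PLX5622), 12 of pyramidal neurons (3326 to 3678 and 3275 to 3622) and 10 of astrocytes (3259 to 3652 and 3246 to 3595). It also held for 10 of oligodendrocytes (1363 to 2029 and 1163 to 2359), 6 of striatal neurons (455 to 547 and 428 to 542) and the choroid plexus list (6 genes, summed 4.39 to 16.9 and 9.31 to 41.5). Only 1 gene of the last list was tested, Ttr, the transthyretin gene, with 0.628 to 10.6 CPM in controls and 6.03 to 34.0 CPM with PLX5622, a log2 fold change of 1.49 ± 0.47 (SE, edgeR unadjusted p = 0.0036, adjusted 0.284). Its part in the results on the subunits was not tested. The sums follow the most abundant genes of each list. Gene by gene, the astrocyte markers had a median log2 fold change of 0.10, with 8 above 0 and 2 below. Over all genes the median was -0.0002. Medians of the interneuron, pyramidal, oligodendrocyte and striatal lists lay between -0.03 and 0.04.

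None of the 7 subunit genes was called between the diets by edgeR's quasi-likelihood test at an adjusted p under 0.05. Of all 11051 genes 0.398% were called, 0.353% lower and 0.0452% higher, so a count of 0 among 7 does not set the subunits apart from other genes. None had an unadjusted p under 0.05 either, where all genes had 6.81%, and DESeq2 and limma-voom called none, against 0.396% and 0.389% of the genes they assessed. The log2 fold changes, PLX5622 over control, lay between -0.12 and 0.07, with 4 above 0 and 3 below, where 50.1% of all genes were below, and a median of 0.02, against -0.0002 over all genes tested. Their median size without regard to sign was 0.04, and that of all genes was 0.07. The 95% intervals of all 7 included 0. Their outermost bounds were 0.835-fold for Gabra3 and 1.16-fold for Gabrd, so changes beyond these were outside every interval. The narrowest interval, that of Gabrb1, ran from 0.954-fold to 1.08-fold. The diets overlapped in all 7 genes. Over all genes 0.199% did not overlap.

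**Figure D1:**
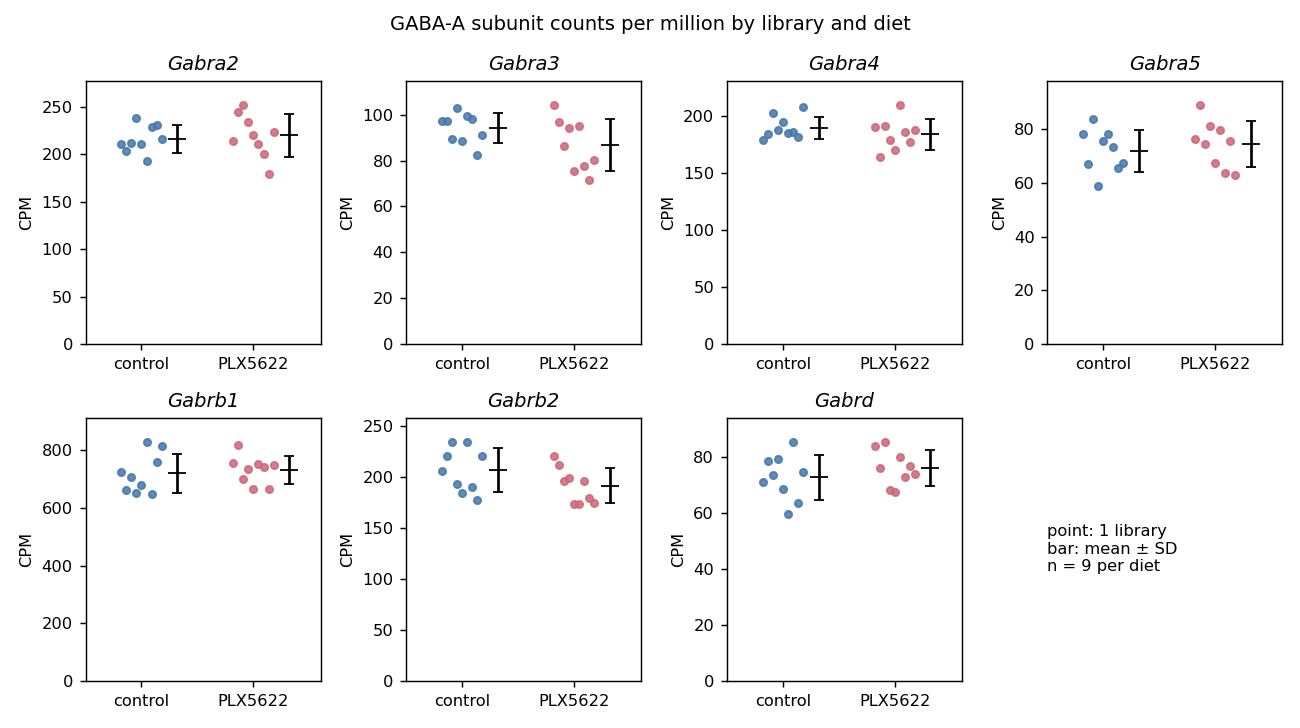
CPM (vertical axes, from 0) of the 7 subunit genes in each library, control diet in blue and PLX5622 in red, with the mean and SD of 9 libraries beside the points. In every panel the points of the diets overlap, and relative to their level the means are closest in Gabra2 and Gabrb1 (1.02-fold each).

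Among the alpha genes, Gabra2 had 193, 211 and 238 CPM (lowest, median, highest) in controls and 179, 220.1 and 252 CPM with PLX5622. The PLX5622 libraries spread further on both sides, with animal 34 lowest and animal 27 highest. Means were 216 ± 14.4 and 219.8 ± 22.4 CPM (SD, n = 9 each), a log2 fold change of 0.02 ± 0.05 (SE, 95% interval -0.09 to 0.13, edgeR adjusted p = 0.983). Without PLX5622 27 this value was -0.0083, so even its sign rests on 1 library. Gabra4, the alpha subunit that pairs with delta outside synapses, had 178, 186 and 207 CPM in controls and 163, 186 and 209 CPM with PLX5622. Its medians were alike to the whole CPM, and its log2 fold change was -0.04 ± 0.05 (interval -0.15 to 0.06, edgeR adjusted p = 0.958).

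Gabra3 and Gabra5 were the lower alpha genes by count. Gabra3 had 82.4, 97.1 and 103 CPM in controls and 71.4, 86.5 and 104 CPM with PLX5622. Animals 29, 32, 34 and 35 of the PLX5622 diet lay below every control, at 71.4 to 80.4 CPM, while animal 25 lay above every control. The means of 94.0 ± 6.51 and 86.8 ± 11.3 CPM (SD, n = 9 each) gave a log2 fold change of -0.12 ± 0.07 (interval -0.26 to 0.02, edgeR adjusted p = 0.809). Without PLX5622 25 it was -0.16 (edgeR unadjusted p = 0.027, adjusted 0.574). Without PLX5622 34 it was -0.08 (edgeR unadjusted p = 0.249, adjusted 0.940). These were the lowest and highest values when 1 library was left out. Gabra5, whose receptors are known mainly from hippocampus and deep cortex, had 58.8, 73.4 and 83.9 CPM in controls and 63.0, 75.6 and 89.0 CPM with PLX5622. Of its 9 PLX5622 libraries 8 lay within the control range, and its log2 fold change was 0.04 ± 0.08 (interval -0.11 to 0.20, edgeR adjusted p = 0.971).

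Gabrb1, the beta gene with the most counts, had 648, 709.5 and 831 CPM in controls and 665, 742 and 817 CPM with PLX5622. All 9 PLX5622 libraries lay within the control range, and the log2 fold change was 0.02 ± 0.05 (SE, interval -0.07 to 0.11, edgeR adjusted p = 0.978). With a mean of 1007 counts a library it had the narrowest interval of the 7. Gabrb2 had 177, 205 and 234 CPM in controls and 173, 195 and 220.0 CPM with PLX5622. Of its PLX5622 libraries 7 lay below the control mean and 3 below every control. The means of 206 ± 21.7 and 191 ± 17.3 CPM (SD, n = 9 each) gave a log2 fold change of -0.11 ± 0.06 (SE, interval -0.22 to 0.0036). Its unadjusted p of 0.057 by edgeR was the smallest of the 7 and ranked 841 among all genes tested, which gave 0.752 after adjustment. The unadjusted p fell under 0.05 without control 5, 7, 9 or 10 or PLX5622 25 or 26, left out singly. It also did so with the animal number as a covariate. In these settings no adjusted p was under 0.495 (edgeR, log2 fold change -0.11 to -0.14). Of the single libraries left out, control 8 gave the log2 fold change smallest in size, -0.085 (edgeR unadjusted p = 0.133, adjusted 0.777).

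Gabrd, the delta subunit of tonic, neurosteroid-sensitive receptors, had 59.7, 73.6 and 85.4 CPM in controls and 67.3, 76.0 and 85.3 CPM with PLX5622. All 9 PLX5622 libraries lay within the control range. The means were 72.6 ± 8.01 and 75.9 ± 6.31 CPM (SD, n = 9 each), a log2 fold change of 0.07 ± 0.07 (SE, interval -0.08 to 0.22, edgeR adjusted p = 0.938).

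**Figure D2:**
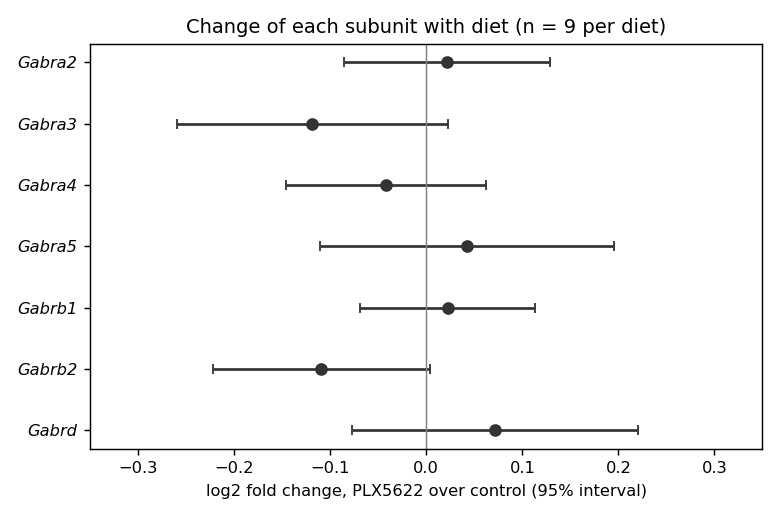
Log2 fold change of each subunit gene, PLX5622 over control (horizontal axis), with the edgeR estimate as a point and its 95% interval as a line, 9 libraries per diet. All 7 lines cross 0, and Gabrb2, at -0.22 to 0.0036, does so most narrowly.

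The proportions of partner subunits within a library, which do not depend on scaling, were compared without a test. Gabrb1 over Gabrb2 by CPM was 3.51 ± 0.39 for control and 3.84 ± 0.31 for PLX5622 (SD, n = 9 each), and 7 of 9 PLX5622 libraries lay in the control range of 3.00 to 4.28. Gabrd over Gabra4 was 0.384 ± 0.045 and 0.414 ± 0.032, with 8 of 9 in the control range. Among counts of the 4 alpha genes, Gabra2 took 37.8% ± 2.1 in controls and 38.9% ± 2.5 with PLX5622, Gabra4 33.2% ± 1.4 and 32.6% ± 2.6, Gabra3 16.5% ± 1.2 and 15.3% ± 1.3, and Gabra5 12.6% ± 1.4 and 13.2% ± 1.3. The group means of these shares thus lay within 1.13 percentage points of each other. The Gabra3 share of 5 of 9 PLX5622 libraries lay in the control range of 14.7% to 17.9%.

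The order of the subunits depended on how gene length was taken into account. Library preparation favoured the 3′ end of transcripts, but the counts behave as counts over whole genes. Where a protein-coding gene lay inside a same-strand gene, 0 of 446 had a count, against 525 of 800 lying only inside genes of the other strand. Genes spanning over 500 kb held 12.4% of all counts. By this measure the reads of Gabra5 and of the gene on its other strand were told apart, though the strand setting is not given in the sources used here. Whether counts follow exon length or gene span was not tested, and with a preparation that favours the 3′ end they need not follow either. The order is therefore given on each scale and without division by length, and no scale was shown to give the true levels.

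Per kilobase of annotated exon, Gabrb1 came first at 52.5 ± 4.19 CPM per kb (SD over 18 libraries). The order went on with Gabrb2 at 31.3 ± 3.23, Gabra4 at 30.7 ± 1.93, Gabra2 at 28.5 ± 2.41, Gabrd at 25.8 ± 2.50, Gabra5 at 24.6 ± 2.72 and Gabra3 at 23.0 ± 2.46 CPM per kb of exon. Gabrb1 exceeded Gabrb2 in 18 of 18 libraries, 1.69-fold on average. No other pair of neighbours was separated beyond its spread, since the order held in 9 of 18 libraries for Gabrb2 over Gabra4 and in 11 to 14 of 18 for the rest. Only 1 of 18 libraries showed the whole order. With PLX5622 alone, Gabra4 and Gabrb2 changed places.

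Per kilobase of gene span the short gene Gabrd came first, at 5.66 ± 0.55 CPM per kb of span (SD over 18 libraries), 2.69-fold over Gabra4. Gabra4 at 2.11 ± 0.13, Gabra2 at 1.58 ± 0.13, Gabrb1 at 1.48 ± 0.12, Gabrb2 at 0.950 ± 0.098, Gabra5 at 0.715 ± 0.079 and Gabra3 at 0.403 ± 0.043 followed. On this scale neighbours were separated in 18 of 18 libraries except Gabra2 over Gabrb1, at 13 of 18. Without division by length, Gabrb1 took 46.3% of the CPM of the 7 genes, Gabra2 13.9%, Gabrb2 12.7%, Gabra4 11.9%, Gabra3 5.77%, Gabrd 4.74% and Gabra5 4.67%. Gabra4 stood above Gabra2 on both length scales and below it without one. Gabra3 was last on both length scales, and only Gabrb1 and Gabrd ever led.

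**Figure D3:**
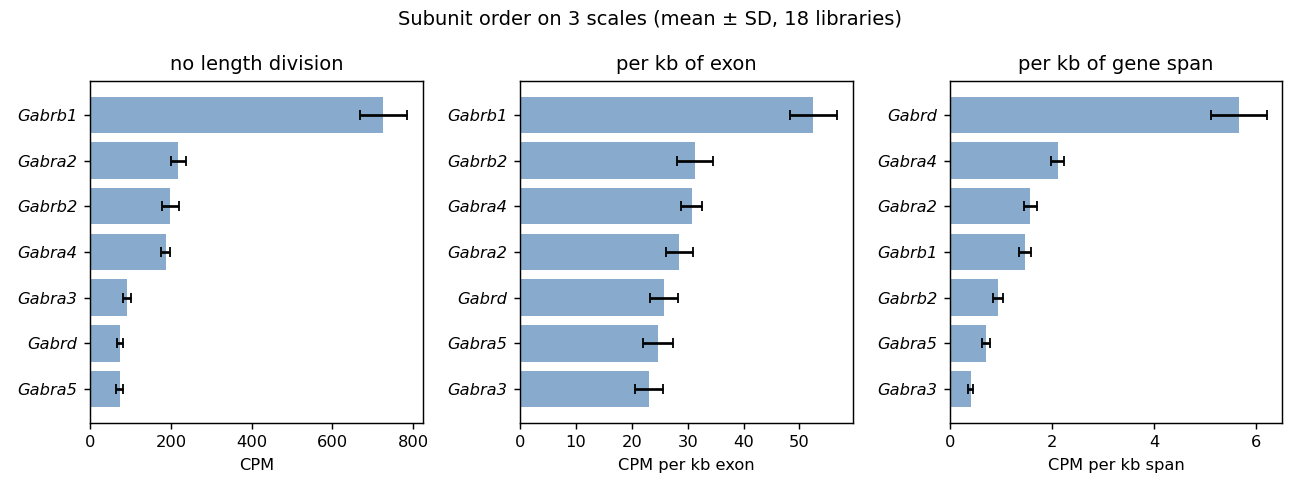
Mean level of each subunit gene over 18 libraries with the SD as a bar, as CPM (left), CPM per kb of exon (middle) and CPM per kb of gene span (right), sorted within each panel, all axes from 0. Gabrb1 leads on the left and in the middle, Gabrd on the right.

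The spread between animals was close to counting error in some genes and above it in others. The coefficient of variation of Gabra5 was 10.9% in controls and 11.5% with PLX5622, where counting alone gives 10.1% and 9.76%. That of Gabrd was 11.0% and 8.32%, against 10.1% and 9.61%, and that of Gabra4 5.09% and 7.28%, against 6.24% and 6.195%. Gabrb1 varied by 9.55% and 6.61% where counting gives 3.19% and 3.11%, and Gabrb2 by 10.5% and 9.05% against 5.97% and 6.07%. Gabra2 varied by 6.68% and 10.2% against 5.84% and 5.69%, and Gabra3 by 6.93% and 13.0% against 8.84% and 9.03%. The beta genes thus varied beyond counting error in both diets, Gabra2 and Gabra3 mainly with PLX5622, and Gabra5, Gabrd and Gabra4 showed little beyond it.

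Whether the subunits vary together was asked over deviations from the diet mean in 18 libraries. None of the 21 pairs passed (permutation test within diet, Benjamini-Hochberg lowest adjusted p = 0.499 for Pearson's r and 0.317 for Spearman's rho), with Pearson's r from -0.42 to 0.49 and a median of 0.12. The closest pair was Gabra3 and Gabrb2, with r = 0.49 (permutation p = 0.036, adjusted 0.499), rho = 0.45 (permutation p = 0.060, adjusted 0.317) and r = 0.36 without the 2 libraries farthest from the median. Gabra4 and Gabrd, which share receptors, had r = 0.33 (permutation p = 0.171, adjusted 0.512) and rho = 0.44 (permutation p = 0.075, adjusted 0.317), and r was 0.30 without 2 libraries. Gabra4 and Gabrb1, whose starts overlap, had r = 0.12 (permutation p = 0.638, adjusted 0.949) and rho = 0.14 (permutation p = 0.594, adjusted 0.849), and r was -0.16 without 2 libraries. Within controls and within PLX5622 no pair passed either, with a lowest adjusted p of 0.368 and 0.441 for r and of 0.366 and 0.133 for rho (permutation test).

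Each subunit gene was set against the share of counts that a library held in genes spanning over 500 kb, members left out. This measure was chosen after the data were seen. By diet that share came to 12.5% ± 0.75 (control) and 12.3% ± 0.56 (PLX5622), as mean and SD of 9 libraries, with a two-sided p of 0.622 in an exact permutation test. Over 18 libraries and relative to the diet mean, Gabrb2 had r = 0.71 with it (permutation p = 0.0016, adjusted 0.011 over the 7 genes) and rho = 0.67 (permutation p = 0.0044, adjusted 0.031). Without the 2 farthest libraries r was 0.65, and it was 0.77 within controls and 0.62 within PLX5622. Gabrb1 had r = 0.61 (permutation p = 0.013, adjusted 0.044) and rho = 0.53 (permutation p = 0.035, adjusted 0.081), and r was 0.60 without 2 libraries, 0.73 within controls and 0.38 within PLX5622. The other 5 genes had r from -0.39 for Gabra2 to 0.45 for Gabra5, and rho from -0.48 to 0.52 for the same genes. None of these 5 passed (permutation test, lowest adjusted p = 0.134 for r and 0.081 for rho). By rho Gabrb1 did not pass either, and Gabra5 was close to it (permutation p = 0.032, adjusted 0.081). Within PLX5622 r was 0.69 for Gabra5 and 0.68 for Gabra3, and within controls it was 0.27 and 0.11. The correlations are over the same 18 libraries, whose depths differ as given above. The measure was chosen with these libraries seen, so the p-values describe them and cannot support a link. The part of this share in the levels of the beta genes was not tested beyond a fit with it as a covariate. In that fit, also added after seeing the data, Gabrb2 was at -0.08 and Gabrb1 at 0.04 (log2, PLX5622 over control, edgeR adjusted p = 0.763 and 0.902).

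**Figure D4:**
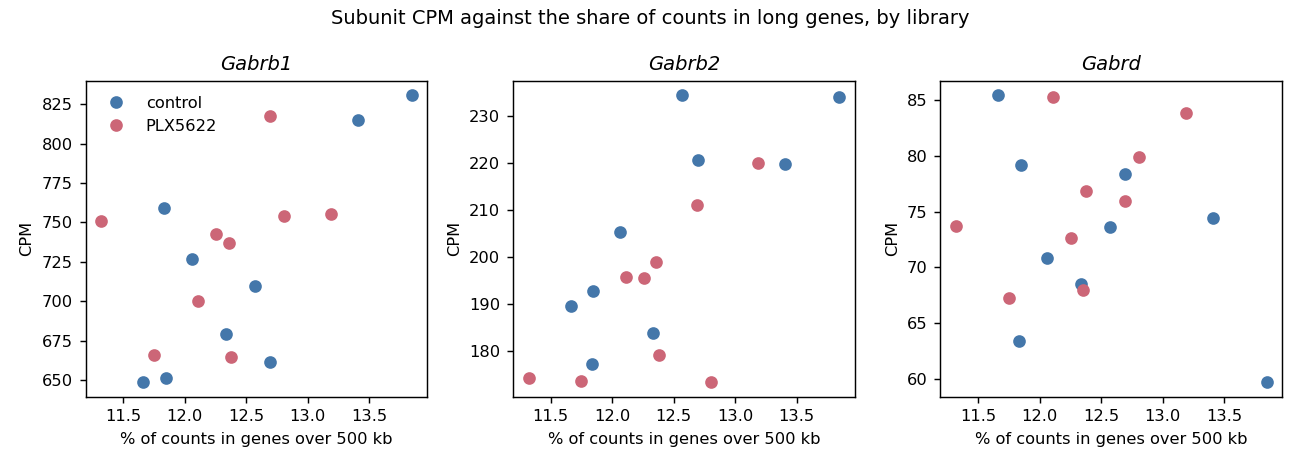
CPM of Gabrb1, Gabrb2 and Gabrd (vertical axes, not from 0) against the percent of a library's counts in genes spanning over 500 kb (horizontal axes), 1 point per library, controls in blue and PLX5622 in red. The points of Gabrb2 climb with the share in both diets (r = 0.71 relative to the diet mean), while those of Gabrd differ in direction by diet (r = -0.46 in controls and 0.49 with PLX5622).

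The genes most like each subunit over the 18 libraries, out of 5766 with a mean of at least 50 counts, were named as a description. For Gabrb2 they were Kcnq5, a potassium channel gene, Cntnap2 and Cadm2, genes of neuronal adhesion proteins, with Pearson's r of 0.90, 0.83 and 0.82 and spans of 564, 2245 and 965 kb, against a median span of 42.3 kb over the genes compared. For Gabrb1 they were Lsamp, 5330434G04Rik and Klf13 (r = 0.84, 0.84 and 0.83), of which Lsamp spans 2197 kb and the others 43.5 and 52.6 kb. For Gabrd they were Trnp1, Kcnab2, a potassium channel subunit, and Atp2b2, a calcium pump (r = 0.85, 0.83 and 0.79, spans 7.45, 87.1 and 299 kb). The alpha genes were closest to Tmem151a for Gabra2 (r = 0.78), Fut8 for Gabra3 (0.80), Crk for Gabra4 (0.74) and Lcorl for Gabra5 (0.76). No subunit was among the 3 genes most like another. These are the highest of 5766 values per subunit over the same 18 libraries, whose depths differ as given above. Kcnq5, Cntnap2, Cadm2 and Lsamp span over 500 kb and so are part of the long-gene share above. So is Anks1b, the third gene for Gabra3 (r = 0.76, span 1100 kb). The likeness of these genes to the beta genes and to Gabra3 is therefore not separate from the correlations with that share.

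The animal number within a diet, which can stand for an order of handling that the labels do not give, was set against the members as a covariate. Gabra3 and Gabrb2 were each at -0.03 per position (log2, edgeR, unadjusted p = 0.011 and 0.014), which did not pass over all genes (adjusted p = 0.362 and 0.383), while 34 of all genes passed. Animals 2 to 11 had the control diet and animals 25 to 35 PLX5622, so an effect of handling that followed the numbers and an effect of diet cannot be told apart.

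The rest of the GABA system showed 1 call. Of 68 genes on 6 lists 55 were tested, with a median log2 fold change of -0.02 against -0.0002 over all genes. The 1 called of 55 stands beside 0.398% of all genes, and 3 of 55 had an unadjusted p under 0.05, beside 6.81% of all genes. Kctd12, an auxiliary subunit of the metabotropic GABA-B receptor, fell by 0.35 on the log2 scale (SE 0.09, edgeR adjusted p = 0.033). It had 50.2, 62.6 and 66.1 CPM (lowest, median, highest) in controls and 36.2, 48.0 and 59.9 CPM with PLX5622, and 6 of 9 PLX5622 libraries lay below every control. The call was lost with DESeq2 (adjusted p = 0.071), at a mean of at least 50 counts (0.074), after thinning (0.197) and when any of 12 single libraries was left out (control 3, 4, 5, 7, 8, 10 or 11, PLX5622 25, 26, 27, 32 or 35, highest edgeR adjusted p = 0.132). The log2 fold change itself stayed at -0.35, -0.36 and -0.36 in the first 3 of these settings and ran from -0.39 to -0.31 when 1 library was left out. The microglial markers moved with the same diet contrast, at the summed levels given above, and their part in the value of Kctd12 was not tested. The other 7 genes of the GABA-B list were not called, with Gabbr2, a receptor subunit, at 0.06 ± 0.04 (log2, SE).

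No other list of the GABA system held a call. All 10 genes of GABA synthesis, release and uptake were tested, 4 below 0 and 6 above, with a median of 0.02. Slc32a1, the vesicular GABA transporter, was at -0.16 ± 0.09 and the transporter Slc6a13 at 0.31 ± 0.17 (log2, SE, edgeR adjusted p = 0.767 and 0.797). Of 23 genes that anchor or move receptors 22 were tested, with a median of -0.02. Gabarap, which binds GABA-A receptors in trafficking, was at 0.15 ± 0.06 (log2, SE, edgeR adjusted p = 0.525). Of 10 genes that set the chloride gradient 9 were tested, with a median of -0.02, the kinase gene Wnk1 at -0.16 ± 0.06 and the carbonic anhydrase gene Car2 at 0.07 ± 0.11 (edgeR adjusted p = 0.539 and 0.964). Only 1 of 5 neurosteroid synthesis genes could be tested, Srd5a1 at -0.04 ± 0.19 (edgeR adjusted p = 0.997). Of 12 further GABA-A subunit genes 10 had counts and 5 were tested, all with values below 0, from -0.12 to -0.01, and a lowest edgeR adjusted p of 0.852.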

How the data were processed

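RNA was counted in 18 libraries, 9 per diet. The authors deposited raw read counts, 1 file of Ensembl genes per library. Tools in the submitters' processing notes are HTSeq 0.11.0, Bowtie2 2.3.4.3, R 3.5.1, FastQC 0.11.8 and DESeq2 1.10.1, with GRCm38.p6 and mm10 as builds. Their roles, strand setting and annotation release: not given in the sources used here. Identifiers were matched to GENCODE M21 without version, 53620 of 54547. The 927 unmatched hold 0.0467% of counts. Libraries held 990136 to 1742680 counts. No 2 libraries of a diet agreed within sampling noise (lowest chi-square per degree of freedom 1.13, genes with at least 20 counts in the pair).

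Counts were tested with edgeR 4.0.16 in R 4.3.3 (filterByExpr at a minimum count of 10 and total of 15, TMM, robust quasi-likelihood fit, Benjamini-Hochberg over 11051 genes, calls at an adjusted p under 0.05), a fit checked on simulated counts. Standard errors and 95% intervals came from the fitted coefficients. Log2 CPM for correlations carry a prior count of 2, and permutations numbered 100000. Alternatives were DESeq2 1.42.0, limma-voom (limma 3.58.1), other scalings and filters, thinning, the animal number, and leaving out each library. After seeing the data, 3 were added: a long-gene covariate, gene span as the length, and leaving out both control 8 and PLX5622 28. Members and lists were chosen with earlier results of these data known. Named genes are the members, called genes or the 2 with the smallest p of each GABA list, and the 3 genes most like each member. Marker genes are given as sums, and not every gene named by the rule is reported. P-values of the fits set an effect against the spread between these libraries, and those of the correlations come from shuffling within diet.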

Additional observations from a re-analysis of the deposited data

Results flagged for a closer look

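Of 56 sets of 9 libraries examined for a value far from the rest, 2 held one, where chance flags about 1 in 20. Control 8 had a summed level of 1114 CPM in the genes of GABA synthesis, release and uptake, far below the other 8 controls at 1252 to 1373 CPM. Control 3 had a summed level of 624 CPM in the microglial markers, far above the other 8 controls at 443 to 507 CPM. No subunit gene and no proportion between subunits held such a library.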

How the results depend on the processing

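The count of 0 subunit genes called held under DESeq2, limma-voom, 3 other scalings, 2 other filters, thinning, both covariates, without each of 18 libraries (0 to 0) and without control 8 and PLX5622 28. Of 203 fold changes of subunits under these settings 201 kept their sign, all without a call. The exceptions were Gabra2, which ran from -0.0083 (without PLX5622 27) to 0.0576 (without PLX5622 34) when 1 library was left out, and stood at -0.0090 without control 8 and PLX5622 28 (log2). Apart from leaving out 1 library at a time, the counts of all genes called moved as follows. The 39 lower became 65 with DESeq2, 92 without a filter, 8 at a mean of at least 50 counts and 25 after thinning. The 5 higher became 20 without a filter and 0 at a mean of at least 50 counts (edgeR, 189 genes higher at an unadjusted p under 0.05). The 5 higher became 17 with the animal number and 8 without control 8 and PLX5622 28. Without 1 library the counts ran from 38 to 50 lower and from 2 to 8 higher. The causes of these moves were not tested. The filter at a mean of at least 50 counts left 5767 genes to test and thinning 10350, against 11051. The order of the 7 subunits per kb of exon kept 1 member at its rank without division by length, 2 per kb of gene span and 5 with PLX5622 libraries alone, and all 7 with the longest transcript, with medians and in controls alone. Correlations between subunits gave 0 pairs in both diets together and in each alone. Depth limits precision most in Gabra5 and Gabrd, with means of 101 and 104 counts a library and standard errors of 0.08 and 0.07. No paired analysis was possible because the diets share no replicate numbers.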
